A study of Mus musculus with 6 samples.

Results

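The olfactory receptor (Olfr) genes of mouse chromosomes 16 and 19 were examined as a group. Members were all symbols made of Olfr and a digit whose locus in the deposited table lay on either chromosome of the build mm9. This gave 101 genes of 1119 Olfr genes, with 39 on chromosome 16 and 62 on chromosome 19. A run of members with starts less than 1 Mb apart was taken as a cluster, which gave 5 clusters, called clusters 1 to 5 here. Levels are FPKM, a fragment count divided by transcript length and by the size of the library, as the authors deposited them.

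RNA was sequenced from olfactory epithelium of mice on a mixed background derived mostly from C57/B6. At E18.5, late in gestation, there were 4 libraries: a G9a heterozygote (G9a het), a G9a knockout (G9a KO), a G9a knockout heterozygous for GLP (G9a KO GLP het) and a knockout of both (G9a/GLP dKO). At postnatal day 21 there were 2 libraries, from a Suv420h1 and Suv420h2 double heterozygote (Suv420h dhet) and the double knockout (Suv420h dKO). Each genotype had 1 library, there was no wild type, and both reference libraries carry mutant alleles; the labels name no driver, deleted part or number of animals. Embryonic values are listed in the order of the libraries above unless a library is named, and so are postnatal values.

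Olfactory receptors are G protein-coupled receptors for odorants. Each mature sensory neuron of the olfactory epithelium expresses mainly a single receptor allele, while the other receptor genes are held in heterochromatin. G9a (Ehmt2) and GLP (Ehmt1) are partner enzymes that methylate histone H3, and Suv420h1 and Suv420h2 methylate histone H4, in both cases at lysines linked to silent chromatin. A rise or fall of a receptor in whole tissue can reflect how many neurons chose it or how much RNA each makes, and these cannot be told apart in bulk RNA.

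No difference below has a replicate check, so each compares libraries and not genotypes. The targeted genes were close to their reference level or above it in the libraries labelled as knockouts. Ehmt2 was at 24.5 FPKM in G9a het and 30.2 to 32.5 in the others, and Ehmt1 was at 17.3, 20.8, 15.8 and 16.02 in the order above. Suv420h1 was at 31.0 and 30.6 FPKM and Suv420h2 at 7.92 and 7.35 in the postnatal pair. Transcript levels of the whole gene do not check a deletion whose extent is not given. Xist was at 0.242, 140, 0.272 and 208 FPKM in the embryonic libraries, so the sex of the tissue also differs between them. Omp, which defines mature olfactory neurons, was at 78.6, 36.0, 21.2 and 24.0 FPKM in the embryonic libraries. It was at 1124 and 1108 FPKM in the postnatal libraries, which come from a separate table.

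The chromosome 16 and 19 receptors were lower as a group in all 3 embryonic libraries labelled as G9a knockouts than in the G9a het library. Their summed level was 53.0, 20.3, 19.4 and 7.71 FPKM, highest in the heterozygote and lowest in the double knockout. The number of members at 0.5 FPKM or more was 38, 10, 10 and 5 of 101, and 12, 50, 73 and 87 were listed at 0. Of the other Olfr genes, 389, 144, 157 and 84 of 1018 reached 0.5 FPKM, so the drop in detected genes was common to receptors in general.

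Members held 8.38%, 6.52%, 7.13% and 1.74% of all receptor FPKM in the 4 libraries, while they are 9.03% of Olfr genes. The low share in G9a/GLP dKO came beside a few very high receptors elsewhere in the genome. With the 5 highest other receptors of each library set aside, the shares were 8.68%, 7.52%, 8.18% and 3.07%.

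**Figure D1:**
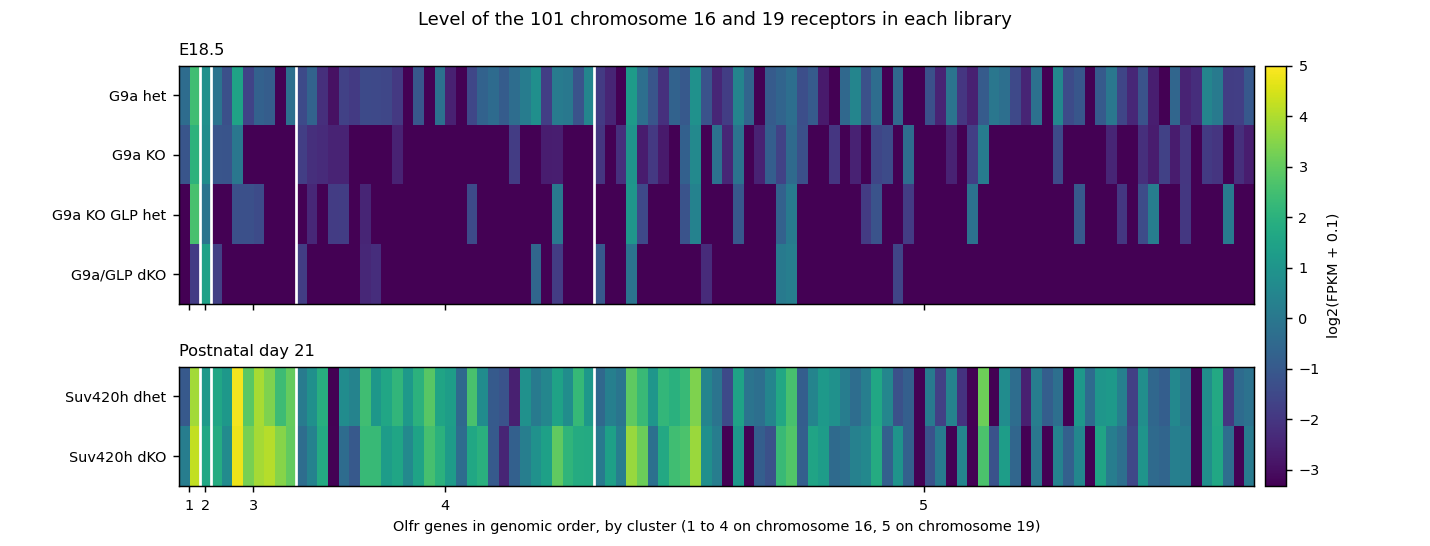
Level of each of the 101 receptors as log2(FPKM + 0.1), in genomic order from left to right, with white lines between clusters and 1 row per library. The G9a het row holds values above 0 for 89 members, the G9a/GLP dKO row for 14, and the postnatal rows for most members; the embryonic and postnatal tables were made separately.

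For the comparisons, ratios were taken on log2(FPKM + 0.1) among genes at 0.5 FPKM or more in either library, a scale that understates differences of low genes. In G9a/GLP dKO against G9a het, 0 of 38 members were at least 2-fold higher, 35 were at least 2-fold lower and 3 lay within 2-fold. Among the other Olfr genes 11.5% were higher and 82% lower, and among all genes 5% were higher and 6.6% lower. The median log2 ratio was -3.01 for members and -3.02 for other Olfr genes, against 0.01 for all genes. Of the 38 members, 33 entered through G9a het alone and so had to be lower, and 29 were listed at 0 in G9a/GLP dKO, so that median is set largely by the added 0.1. With no minimum, 70 of 89 members were at least 2-fold lower and 0 higher, beside 77.1% and 7.33% of other Olfr genes and 9.66% and 5.74% of all genes. The ratio of summed levels was 0.146 for members and 0.751 for other Olfr genes, or 0.437 for the latter with the 5 highest of each library set aside.

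The single G9a knockouts gave similar counts on the same scale. In G9a KO, 3 of 41 members were higher and 30 lower, beside 9.53% and 64.9% of other Olfr genes and 2.8% and 4.54% of all genes. The median log2 ratio was -2.40 for members and -1.63 for other Olfr genes. In G9a KO GLP het, 3 of 41 members were higher and 29 lower, beside 10.3% and 65.6% of other Olfr genes and 4.22% and 9.18% of all genes. The median log2 ratio was -2.80 for members and -2.39 for other Olfr genes. Here 31 members entered through G9a het alone in each comparison. G9a het is the reference of all 3 embryonic comparisons, and a chance value in it enters each.

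The authors' intervals, of unstated level, show how uncertain single low values are. Where the intervals also had to lie apart, 21 members were lower in the double knockout, 9 in the G9a knockout and 18 in the G9a knockout heterozygous for GLP. The same rule was met by 53.6%, 19.1% and 34.4% of other Olfr genes and by 2.87%, 1.21% and 3.78% of all genes. In the other direction 0 members met it in each comparison, beside 4.68%, 0.93% and 1.59% of other Olfr genes and 1.16%, 0.502% and 1.12% of all genes. Every member listed at 0 carries an interval of 0 to 0, so for these the rule rested on the G9a het bound alone.

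**Figure D2:**
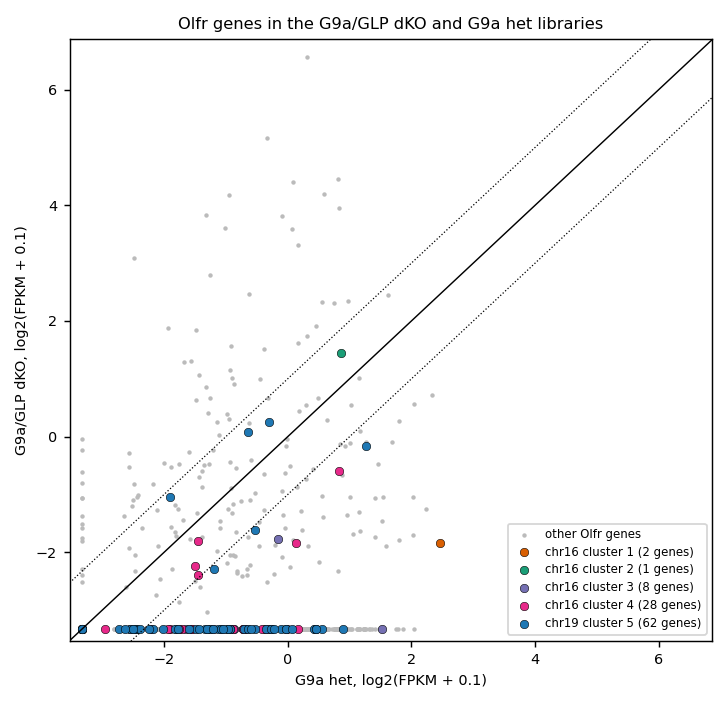
Level in G9a/GLP dKO (vertical) against G9a het (horizontal), both as log2(FPKM + 0.1), with members coloured by cluster, other Olfr genes in grey, and dotted lines at 2-fold. Of the members only Olfr19, Olfr1437, Olfr1440 and Olfr1417 lie above the diagonal, while 65 grey receptors lie 2-fold or more above it. Of these 65, 49 were at 0.5 FPKM or more in either library.

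Cluster 1 has 2 receptors near the start of chromosome 16, Olfr161 and Olfr15, with a zinc finger gene (Zfp263) and the pyrin gene Mefv between them. Olfr15 (mm9 chr16:3838975-3839913), also known as OR3, was at 5.38, 4.06, 5.90 and 0.180 FPKM in the 4 embryonic libraries. It was thus high in 3 libraries and low in the double knockout alone. The authors' interval was 0 to 0.354 FPKM in G9a/GLP dKO and 1.28 to 8.28 in G9a het, and those of G9a KO (0.841 to 6.60) and G9a KO GLP het (1.37 to 8.64) overlapped the latter. Olfr15 made up 10.2% of the members' FPKM in G9a het and 30.4% in G9a KO GLP het. Its closest receptor in the genome, Olfr1361, shares 66.5% of its bases, so reads from a near copy bear little on its value. The other receptor of the cluster, Olfr161, was at 0.674, 0.362, 0 and 0 FPKM.

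Cluster 2 is Olfr19 alone (mm9 chr16:16673143-16674072). It was at 1.71, 1.60, 0.816 and 2.64 FPKM. It was the highest member of the double knockout library, and its 4 intervals all overlapped, with 0.313 to 3.09 in G9a het and 0.581 to 4.52 in G9a/GLP dKO.

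Cluster 3 spans 339 kb of chromosome 16 (mm9 19285887 to 19625194) and holds 8 receptors, Olfr164 to Olfr171. RefSeq synonyms place them in the MOR families 270 to 273 and 279, where MOR numbers name mouse receptor families by sequence likeness. The cluster sum was 5.78, 1.59, 0.896 and 0.196 FPKM, an order in which the double knockout was lowest. Olfr166 led the cluster, at 2.76, 0.887, 0.312 and 0 FPKM. Its closest copy, Olfr168, shares 95.9% of its bases and was at 0.506, 0, 0.275 and 0 FPKM, so reads of the pair may be split.

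Cluster 4 spans 602 kb of chromosome 16 (mm9 58760266 to 59362042) and holds 28 receptors from Olfr172 to Olfr209, chiefly of the families MOR182, MOR183 and MOR184. Its sum was 12.4 FPKM in the heterozygote and 0.935, 1.74 and 1.13 in the others. Of the 10 members compared, 9 were at least 2-fold lower in G9a KO GLP het, 10 in G9a KO and 10 in G9a/GLP dKO. In the same order, 65.6%, 64.9% and 82% of other Olfr genes were lower, and 9.18%, 4.54% and 6.6% of all genes. All 10 reached 0.5 FPKM in G9a het, beside 1 in G9a KO GLP het, 0 in G9a KO and 1 in G9a/GLP dKO. Nearly all thus entered through G9a het alone and had to be lower. Unlike the sum of cluster 1, which was mostly Olfr15, that of this cluster was as low in the G9a knockout as in the double knockout. The 10 members of MOR182, at its far end, summed to 7.52, 0.296, 0.938 and 0.744 FPKM, and the 7 of MOR183 to 1.94, 0.0727, 0 and 0.

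Within cluster 4, Olfr202 had the top level in the heterozygote, 1.69 FPKM. It was listed at 0 in both single G9a knockouts and was at 0.565 FPKM in G9a/GLP dKO, so its ratio in the double knockout changes direction with the reference library. Olfr204 was at 0.993, 0.0632, 0.938 and 0.179 FPKM, the only receptor of the cluster that reached 0.5 FPKM in G9a KO GLP het. Its neighbour Olfr209 was at 1.27 FPKM in the heterozygote and Olfr201 at 1.02, and both were listed at 0 in the 3 other libraries.

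Cluster 5 holds the 62 receptors of chromosome 19, Olfr1417 to Olfr1505, over 2092 kb (mm9 11902567 to 13994462). Its sum was 27.1, 11.7, 10.03 and 3.56 FPKM. The remaining signal was uneven along the cluster. The first 20 receptors, up to Olfr1441, summed to 10.8, 7.63, 5.58 and 3.34 FPKM. The 30 receptors of the family MOR202 that follow summed to 12.1, 3.03, 2.005 and 0.228 FPKM, with 29 listed at 0 in the double knockout. The last 12 receptors summed to 4.23, 1.06, 2.44 and 0 FPKM. The division into 3 runs was drawn after the values were seen.

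**Figure D3:**
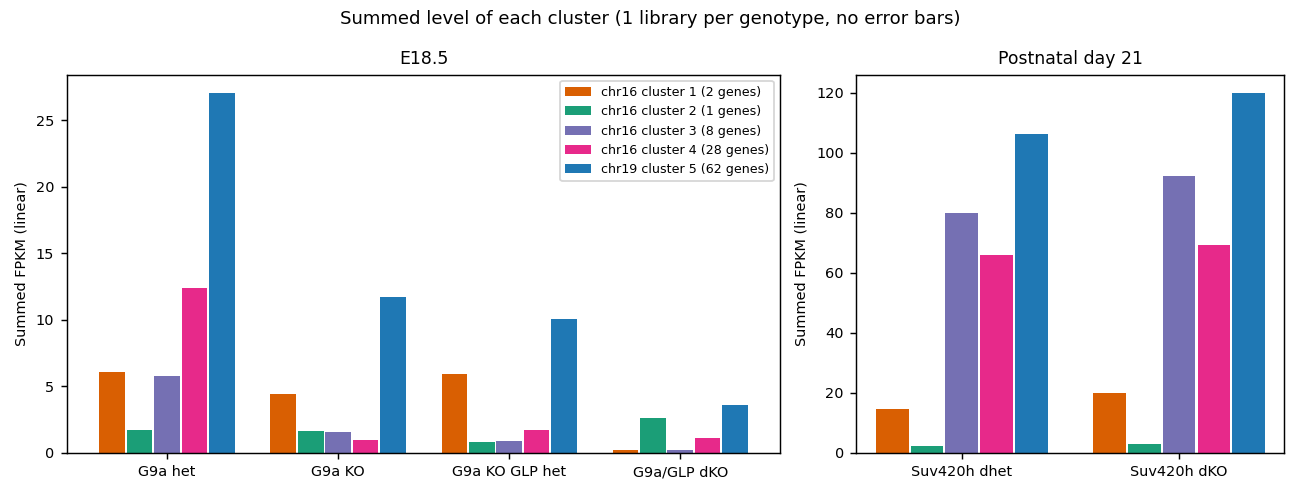
Summed FPKM of each cluster (bars, linear axis from 0) in each library, for E18.5 on the left and postnatal day 21 on the right, which have separate scales. Cluster 4 is at 12.4 FPKM in G9a het and at 0.935 to 1.74 in the 3 other embryonic libraries. Cluster 1, which is mostly Olfr15, is at 4.42 to 6.06 FPKM in all embryonic libraries but the double knockout.

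In the first run of chromosome 19, several receptors were present in all or most embryonic libraries. Olfr1420 (mm9 chr19:11970513-11971442) was at 2.29, 1.88, 1.95 and 0.794 FPKM. Olfr1428 was at 1.76, 1.41, 1.19 and 0 FPKM, so like Olfr15 it was low in the double knockout alone. Olfr1440 was at 0.712, 0.631, 0.954 and 1.09 FPKM. With Olfr19 and Olfr1420, it was among the 3 members at 0.5 FPKM or more in all 4 embryonic libraries. The family MOR239, to which Olfr1428 belongs, summed to 3.89, 2.16, 1.79 and 0 FPKM over its 6 members.

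Receptor genes usually carry short upstream exons, so the RNA starts well before the coding exon. Of 86 members in the RefSeq promoter table (GRCm38.p6), 69 are annotated from the start codon and only 9 start 1 kb or more before it. Of these 9, 4 hold a homeodomain core in the 250 bases before the start (TAATTA or TAATGA, either strand), the letters that Lhx2-type factors bind. The share was 44.4%, beside 50.6% of 89 Olfr genes annotated that far upstream and 12.5% of 32851 promoters. Below are 2 such windows from chromosome 19, shown because these receptors had like levels in G9a het but parted in the double knockout; capitals mark TAATGA or its reverse complement, and coordinates are GRCm38.p6. Olfr1437 (chr19:12325067-12325316, minus strand) was at 0.541, 0.209, 0.504 and 0.963 FPKM. Olfr1426 (chr19:12091848-12092097, minus strand) was at 0.513, 0, 0 and 0 FPKM.
Olfr1437: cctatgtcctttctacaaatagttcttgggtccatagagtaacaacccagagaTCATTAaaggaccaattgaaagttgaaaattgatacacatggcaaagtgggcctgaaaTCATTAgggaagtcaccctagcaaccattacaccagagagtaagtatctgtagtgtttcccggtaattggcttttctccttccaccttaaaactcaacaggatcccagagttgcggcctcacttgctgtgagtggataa
Olfr1426: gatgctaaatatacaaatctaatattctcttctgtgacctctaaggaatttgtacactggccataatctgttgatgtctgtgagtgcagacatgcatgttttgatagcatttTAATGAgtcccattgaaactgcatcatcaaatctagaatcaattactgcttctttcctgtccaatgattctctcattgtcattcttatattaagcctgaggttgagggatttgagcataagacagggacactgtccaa
Olfr1426 was chosen after its values were seen. The authors' interval for Olfr1437 was 0 to 1.06 FPKM in G9a het and 0.0443 to 1.82 in G9a/GLP dKO, which overlap. That of Olfr1426 in G9a het was 0 to 1.07 FPKM. Both have near copies, at 96.3% for Olfr1437 and 95.7% for Olfr1426, so these levels are uncertain. Of the 4 receptors whose window holds the core, 1 was above 0 in the double knockout, and of the 5 without it, 2 were (Olfr180 and Olfr181).

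A few members went the other way in a single library. In G9a KO, Olfr1431 was at 0.763 FPKM against 0.0846 in G9a het, Olfr1463 at 1.02 against 0.426, and Olfr1451 at 0.678 where it was listed at 0 in G9a het. In G9a KO GLP het, Olfr1494 was at 1.04 FPKM against 0.0617, Olfr1502 at 0.962 against 0.184, and Olfr1462 at 0.764 against 0.0714. All 6 lie on chromosome 19 and were listed at 0 in G9a/GLP dKO. Their intervals overlapped or met those of G9a het, and the counts past 2-fold with intervals apart were 0 in both libraries. For Olfr1494 the intervals only met, at 0.132 FPKM, and for Olfr1451 the G9a het interval was 0 to 0.

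The lower levels were not shared by the other genes that lie among the receptors. Of 47 non-receptor genes inside the clusters or within 200 kb of their ends, 31 reached the minimum in G9a/GLP dKO or G9a het. Of these, 29 lay within 2-fold, 0 were lower and 2 were higher, with a median log2 ratio of 0.00. The 2 higher genes were Igll1 and Vpreb1, parts of the surrogate light chain of developing B cells, near Olfr19. They were at 1.08 and 1.04 FPKM against 0.225 and 0.152.

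Inside the clusters themselves 10 such genes were measured, and all 10 lay within 2-fold, with log2 ratios from -0.29 to 0.57. Osbp, an oxysterol-binding protein gene within cluster 5, was at 32.2, 27.8, 32.4 and 30.2 FPKM in the 4 embryonic libraries. Zfp91, a zinc finger gene further along, was at 35.7, 29.7, 30.2 and 29.8 FPKM. Cldnd1, a claudin-like gene beside cluster 4, was at 48.4, 44.0, 55.6 and 52.8 FPKM. These genes are expressed in many cell types, unlike the receptors. In G9a KO 1 of 29 neighbours was lower, A330040F15Rik at 0.281 against 0.995 FPKM, and in G9a KO GLP het 1 of 30 was higher, Gpr15 at 0.531 FPKM where it was listed at 0 in G9a het.

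**Figure D4:**
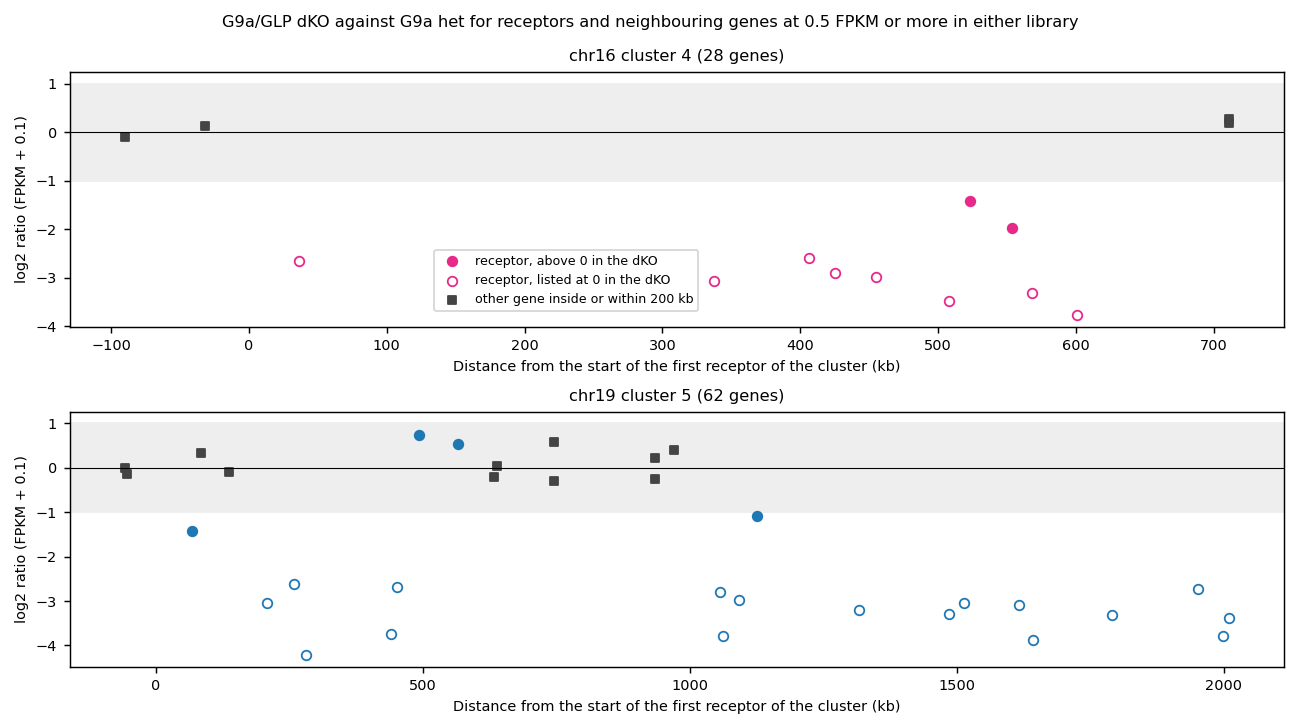
Log2 ratio of G9a/GLP dKO against G9a het (FPKM + 0.1) for receptors (circles, open where listed at 0 in the double knockout) and for other genes (squares) along clusters 4 and 5, by distance in kb from the start of the first receptor. Grey marks less than 2-fold; squares lie inside it and nearly all circles below it, with only Olfr1437 and Olfr1440 among the circles inside.

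Mature neuron markers were also lower in these libraries. In G9a/GLP dKO, 8 of 15 markers were at least 2-fold lower and 15 of 15 lay below 0, with a median log2 ratio of -1.18. In G9a KO 5 of 15 were lower with a median of -0.81, and 11 of 15 in G9a KO GLP het with a median of -1.62. Their summed level was 422, 235, 150 and 207 FPKM, and none of the 15 was at 0 in any library. As a ratio to G9a het, the marker sum was 0.555, 0.356 and 0.490 in the 3 other libraries, and the members' sum was 0.383, 0.366 and 0.146. G9a KO GLP het had the lowest marker sum, whereas the members' sum was lowest in G9a/GLP dKO. By summed level, the other Olfr genes did not share the members' order. Their sum ratio was lowest in G9a KO GLP het, at 0.436, against 0.751 in G9a/GLP dKO. With the 5 highest of each library set aside, these ratios were 0.391 and 0.437. Counted gene by gene, the other Olfr genes were lowest in the double knockout too. There 84 of 1018 reached 0.5 FPKM, beside 157 in the library also heterozygous for GLP and 144 in the G9a knockout. The numbers listed at 0 were 835, 685 and 449 in this order.

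Divided by the geometric mean of these markers (19.8, 10.9, 6.99 and 9.03 FPKM), the members' median log2 ratio was -2.98 in G9a/GLP dKO, -1.73 in G9a KO and -2.60 in the library also heterozygous for GLP. A member listed at 0 stays at 0 after this division, so its ratio could not move. Before scaling, 29 of 38, 15 of 41 and 25 of 41 members compared were listed at 0 in these libraries. The scaled median in G9a/GLP dKO was thus largely fixed in advance and cannot show how far the members differ from the markers. The scaling moved the median of all genes by 1.12, 0.85 and 1.49 on the log2 scale. On it, 4 of 39 members were higher and 31 lower in the double knockout, beside 18.9% and 71.9% of other Olfr genes and 63.2% and 3.28% of all genes. In the G9a knockout 3 of 45 were higher and 26 lower, beside 22.2% and 44.6% of other Olfr genes and 34.3% and 2.25% of all genes. In the library also heterozygous for GLP, 16 of 49 were higher and 26 lower, beside 34% and 44.4% of other Olfr genes and 80.3% and 3.3% of all genes. The part of neuron number in the lower receptor levels was not tested.

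Supporting (sustentacular) cell markers were lower as well, with 6, 1 and 3 of 7 at least 2-fold lower in the comparisons of G9a/GLP dKO, then G9a KO, then G9a KO GLP het. Sult1c1, a sulfotransferase of that list, was higher in G9a KO GLP het, at 26.1 against 11.1 FPKM. Bowman gland markers had 3, 1 and 3 of 4 lower. Immature neuron markers had 0, 0 and 4 of 8 lower, progenitor markers 0 of 6 and respiratory ciliated markers 0 of 3 in each comparison.

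Most genes that act in receptor expression lay within 2-fold of their G9a het levels, though some were clearly lower. Of 20 such genes, 0 were at least 2-fold apart in G9a/GLP dKO, 0 in G9a KO, and 1 was lower in the library also heterozygous for GLP, Rtp1, which helps receptors reach the cell surface. Median log2 ratios were -0.04, -0.02 and -0.07, and 11, 11 and 12 of the 20 ratios lay below 0. Lhx2, a homeodomain factor needed for most receptor transcription, was at 56.1, 50.2, 45.7 and 49.5 FPKM, and its partner Ldb1 at 65.7, 79.7, 75.1 and 82.7. Ebf1 was at 42.0, 27.9, 29.2 and 32.8 FPKM, and Ebf2 at 38.8, 22.3, 24.5 and 26.9. Rtp2 was at 30.9, 17.6, 15.7 and 22.5 FPKM, and Adcy3 at 21.1, 14.9, 11.6 and 14.6. Atf5 was at 84.0, 82.5, 80.2 and 121 FPKM, highest in the double knockout. Kdm1a, a histone demethylase active at the onset of receptor choice, was at 40.7, 46.7, 42.3 and 40.8 FPKM. Lbr, the lamin B receptor that organises neuronal heterochromatin, was at 19.5, 20.7, 23.9 and 20.1 FPKM.

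At postnatal day 21 the same receptors were widely expressed. Members at 0.5 FPKM or more numbered 80 in Suv420h dhet and 77 in Suv420h dKO, with 71 in both and 15 in neither. These were 79.2% and 76.2% of members, beside 72.9% and 73.4% of 1017 other Olfr genes. Wide expression was thus common to receptors in general. The members' sums were 269 and 305 FPKM, which is 11.4% and 11.03% of receptor FPKM. For genes with a span under 1000 bp, low values fell in steps of 1 fragment, and 1 fragment of Olfr15 was worth 0.0666 and 0.0809 FPKM. A level of 0.5 FPKM thus rests on about 7.51 and 6.18 fragments there. Embryonic steps were not sharp, so the fragments behind embryonic values are unknown.

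The clusters differed in weight between the ages, which come from separate tables. Cluster 3 held 0.914% of receptor FPKM in G9a het and 3.39% in Suv420h dhet, where its 8 receptors summed to 79.8 FPKM. Olfr166 (mm9 chr16:19486933-19487871) was the highest member of both postnatal libraries, at 28.9 and 27.2 FPKM. Olfr168 was at 15.002 and 14.7 FPKM and Olfr169 at 10.4 and 16.7, so high receptors sat side by side. In the embryonic libraries Olfr169 was at 0.446, 0, 0 and 0 FPKM. Cluster 1 held 0.959% in G9a het and 0.621% in Suv420h dhet, with Olfr15 at 14.2 and 18.9 FPKM in the postnatal pair. Over the 101 members, the rank correlation of levels in G9a het and Suv420h dhet was 0.34, and that of the postnatal libraries was 0.86; the genes share annotation and lengths and are not independent replicates.

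In Suv420h dKO against Suv420h dhet, 12 of 86 members were at least 2-fold higher, 11 lower and 63 within 2-fold. Among the other Olfr genes 19.8% were higher and 13.4% lower, and among all genes 3.47% and 7.14%. The median log2 ratio was 0.10 for members and 0.17 for other Olfr genes, and the sum ratios were 1.13 and 1.18. Divided by summed Olfr FPKM, which moved the median of all genes by -0.23 on the log2 scale, 7 of 85 members were higher and 13 lower, beside 14.7% and 18% of other Olfr genes and 2.4% and 10.2% of all genes. The authors' deposited table gave 0 of 83 tested members a q-value under 0.05. For the background, only genes both past 2-fold and with such a q were counted, as a share of those that passed the minimum. These made up 2.02% (higher) and 0.119% (lower) of 843 other Olfr genes, and 0.361% and 2.28% of 16336 genes in all. The deposited table gave 14 of the 83 an unadjusted p-value under 0.05, beside 21.1% of other tested Olfr genes and 15.9% of all tested genes. Over all Olfr genes the deposited table gave 19 of 900 such a q-value. That test sets 1 library against 1 library.

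**Figure D5:**
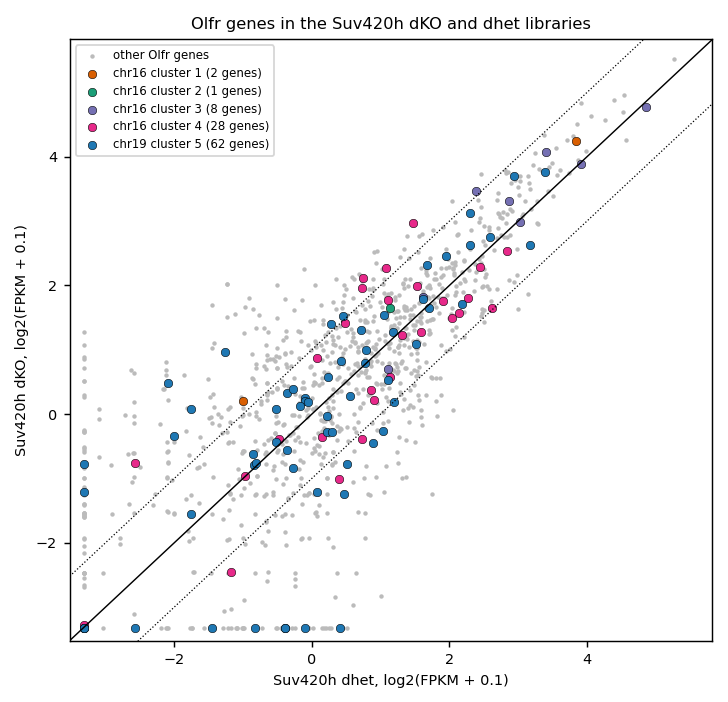
Level in Suv420h dKO (vertical) against Suv420h dhet (horizontal), both as log2(FPKM + 0.1), with members coloured by cluster, other Olfr genes in grey, and dotted lines at 2-fold. Of the members compared, 63 of 86 lie between the dotted lines, among them all receptors of clusters 2 and 3 other than Olfr170.

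The lowest q-value among members in the authors' deposited table was 0.0639, for Olfr204 in cluster 4. Olfr204 was at 2.67 FPKM in Suv420h dhet and 7.73 in Suv420h dKO, which corresponds to 39 and 93 fragments. Exact Poisson 95% intervals for counting error alone were 1.89 to 3.63 and 6.21 to 9.43 FPKM. Its neighbour Olfr205, with 94.2% of its bases shared, was at 1.58 and 4.24 FPKM. The family MOR182, which holds both, summed to 16.05 and 25.3 FPKM, while MOR183 in the same cluster summed to 22.3 and 19.2.

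On chromosome 19, several of the members most apart rested on few fragments. Olfr1461 was at 0.133 FPKM in Suv420h dhet and 1.29 in Suv420h dKO, about 2 and 16 fragments. Olfr1450 was at 0.318 and 1.85 FPKM, about 5 and 24 fragments. In the other direction, Olfr1459 was at 1.22 FPKM, about 18 fragments, and listed at 0 in Suv420h dKO. Olfr1480 and Olfr1504 were each at 0.659 FPKM and listed at 0 in the double knockout. Both directions occurred among neighbours of the family MOR202, whose 30 members summed to 37.1 and 35.7 FPKM.

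Olfr1420 and Olfr1428 lay within 2-fold in the postnatal pair. Olfr1420 was at 7.55 and 12.9 FPKM with a q-value of 0.286 in the authors' deposited table, and Olfr1428 was at 10.4 and 13.5. Olfr170, in cluster 3, was at 5.12 and 11.015 FPKM, just past 2-fold, with a q-value of 0.119 in the authors' deposited table. Mature neuron markers had a median log2 ratio of 0.05 with 0 of 15 past 2-fold. Immature neuron, sustentacular, Bowman gland, progenitor and respiratory ciliated markers and the genes of receptor expression also had 0 members past 2-fold. Of 29 neighbouring genes, 1 was higher (A330040F15Rik) and 2 were lower (Lamp3 and Ms4a3).

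Sequence likeness limits what a single receptor value means. An open reading frame was found for 99 members, whose closest receptor shared a median of 91.1% of bases, from 66.5% to 98.7%, and lay in the same cluster for 92. A copy at 95% identity or more exists for 40 members. The closest pair, Olfr1417 and Olfr1418 (98.7%), stood at 0.167 and 0.0801 FPKM in G9a het, and at 0.387 and 0 in G9a/GLP dKO. The pairs Olfr176 and Olfr177, and Olfr1433 and Olfr1434, are listed at the same locus, so their split is uncertain.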

How the data were processed

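Polyadenylated RNA from olfactory epithelium was prepared with ScriptSeq V2, per the labels' protocols. TopHat, Cufflinks, Cuffdiff and the build mm9 are named per the submitters' processing notes. Not given in the sources used here are versions, annotation, the interval level and the treatment of reads with several matches. Deposited by the authors were FPKM with interval bounds for the embryonic libraries, and FPKM with p-values and q-values for the postnatal pair, per the file headers. The other 8 columns of per-sample values were not used. Total depth is unknown.

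Groups came from the labels. No test was run, because each genotype had 1 library. Genes that reached 0.5 FPKM in at least 1 library of a pair were compared on log2(FPKM + 0.1) and counted past 2-fold (pandas 2.3.3); this was tested on simulated data. Alternatives were the pseudocount, minimum, fold, scaling, intervals or q, and reference. The members, gene lists and rules were chosen with earlier results of these data known. The naming rule took the 5 highest members of each library, the highest of each cluster in each library, the 5 highest and 5 lowest ratios for G9a/GLP dKO and Suv420h dKO (3 and 3 for the other comparisons), members with a q-value under 0.05, the marker lists and the neighbouring genes. Olfr161, Olfr170, Olfr205, Olfr1417, Olfr1418, Olfr1426, Olfr1465 and pairs listed at the same locus were named after their values were seen. Adcy3, Rtp1 and Rtp2 are in both the mature neuron and the receptor expression list. Postnatal fragments were estimated from the step between low values in genes with a span under 1000 bp; 58 of 63 values up to 15 fragments came within 0.15 of a whole number. Of the members, Olfr177 and Olfr1434 have a low-data status in the embryonic data. Identity came from blastn 2.17.0 between open reading frames of at least 600 nt, with 80% or more aligned. MOR families and promoters came from RefSeq: 98 members matched an entry and 96 had 1 family.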

Additional observations from a re-analysis of the deposited data

How the results depend on the processing

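No paired analysis was possible because each genotype has 1 library, and for the same reason none was left out. The values below are counts of members at least 2-fold apart.

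In G9a/GLP dKO against G9a het (0 higher, 35 lower), the lower count was 9 with a pseudocount of 1, 11 with a minimum of 1 FPKM, 70 with no minimum, 65 with values scaled to the same sum in every library, and 21 where intervals had to lie apart. The higher count was 4 with values divided by the mature neuron markers or by summed Olfr FPKM and 1 with that scaling. Against G9a KO there were 2 higher and 8 lower, and against G9a KO GLP het 2 higher and 7 lower; few members reached the minimum there. The log2 ratio of Olfr202 turned to 2.73 and that of Olfr1450 to 1.71 with either of these references, that of Olfr204 to 0.77 against G9a KO, and that of Olfr164 to 1.56 against G9a KO GLP het. Of these, only Olfr202 reached the minimum of 0.5 FPKM there. Olfr1450, Olfr204 and Olfr164 are thus not among the members counted, and their ratios rest largely on the added 0.1.

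In G9a KO (3 higher, 30 lower), the counts were 0 and 4 with a pseudocount of 1, 1 and 7 with a minimum of 1 FPKM, 7 and 53 with no minimum, 6 and 55 with that scaling, and 0 and 9 with intervals apart. Divided by summed Olfr FPKM, 5 were higher. In G9a KO GLP het (3 higher, 29 lower), they were 0 and 7, 1 and 8, 5 and 59, 53 lower with that scaling, and 0 and 18 in the same order. There, 16 were higher when divided by the markers and 9 when divided by summed Olfr FPKM.

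In Suv420h dKO (12 higher, 11 lower), the counts were 4 and 1 with a pseudocount of 1, 4 and 5 with a fold of 3, and 0 and 0 with the authors' q under 0.05. There were 7 lower with a minimum of 1 FPKM and 7 higher when divided by summed Olfr FPKM. Leaving out 44 members that share a locus or have a copy at 95% identity or more, an alternative chosen after seeing the data, left 20, 15, 15 and 4 lower in the 4 comparisons in this order; fewer members enter it.

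Each changed minimum, scaled minimum or left-out member alters by construction how many members enter; for the scaling by markers or summed Olfr FPKM the cause was not tested. Of 84 alternative values of these counts, 38 stayed within 1.5 times the reported count. In the embryonic table an unknown depth limits every value near 0.5 FPKM.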

Other observations

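Some chromosome 16 and 19 receptors had embryonic levels that the postnatal libraries did not match, as read in separate tables. Olfr197, Olfr199, Olfr1451, Olfr1462 and Olfr1465 reached 0.5 FPKM in an embryonic library and in neither postnatal one. Outside the members, Olfr154 and Olfr304 are examples of the same pattern. Neither this pattern nor the reverse one below was counted over the other Olfr genes. Whether either is particular to the members was thus not tested. Olfr1465 was at 0.879 FPKM in G9a het, listed at 0 in the 3 other embryonic libraries and in Suv420h dhet, and at 0.330 FPKM in Suv420h dKO. In the reverse direction, Olfr191 of cluster 4 was listed at 0 in all 4 embryonic libraries and was at 7.03 and 5.69 FPKM in the postnatal pair. Olfr1453 was listed at 0 in all 6 libraries. These names, other than those under the naming rule, were chosen after their values were seen.

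In the embryonic libraries 69 members were highest in G9a het, and 31 were above 0 there and listed at 0 in the 3 others. The double knockout had no member at 0.5 FPKM or more that was below that level in G9a het. These counts were not made for the other Olfr genes, so they cannot show whether the pattern is particular to the members. Of other Olfr genes, 146, 449, 685 and 835 of 1018 were listed at 0 in the 4 libraries, beside 12, 50, 73 and 87 of 101 members.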
